A study of Caenorhabditis elegans with 9 samples.

Results

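The cuticle collagen col family was taken as every gene in the deposited expression table whose name is col followed by a number, 159 of 20389 genes listed. Whole L2 larvae of the nematode Caenorhabditis elegans were profiled by RNA-seq, with 3 libraries for each of 3 genotypes. The mutant was homozygous for hsf-1(ok600), a deletion in the gene of the heat shock transcription factor HSF-1. The transgenic line (strain AM1061) has the same hsf-1(ok600) mutation and adds the transgene rmSi1[hsf-1::gfp], and the third genotype was wild type (strain N2). A library held the RNA of 500 larvae from more than 1 collection, taken 30 h after an egg lay of 2 h, and the design text gives 20 °C for the experiment. The mutant larvae were GFP-negative progeny of the balanced strain OG576, whose mothers still had a working hsf-1 copy on the balancer hT2. The labels name neither the promoter nor the copy number of the transgene.

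The cuticle is the outer skeleton of the worm, secreted by the epidermis and replaced at each of the larval moults. It consists largely of small collagens, which are made in bursts ahead of each moult, joined into trimers through Gly-X-Y repeats, hydroxylated on proline, cut by proteases and cross-linked outside the cell. Many col genes are used at certain stages only, so that the larval, dauer and adult cuticles are built from partly different sets.

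Each gene has a single deposited FPKM per genotype, in which the authors combined the 3 libraries, and a lower and an upper bound of unstated level. FPKM counts fragments relative to transcript length and to all mapped fragments, so levels of different genes can be set beside each other per length. The spread between libraries and their depth are therefore unknown. The bounds printed in brackets are the only error, and their median half-width was 54.1% of the value in the mutant, 53.0% in the transgenic line and 53.8% in wild type for the abundant members. It was wider for the moderate members (70.8%, 81.7% and 77.2%) and the low ones (100%, 111% and 108%), in the same order of genotypes. RNA was taken from whole animals, so a different number of epidermal cells and a different amount of collagen RNA per cell cannot be told apart. The targeted gene hsf-1 was listed at 21.4 FPKM in the mutant (6.52 to 36.4), 69.3 in the transgenic line (29.4 to 109) and 25.3 in wild type (7.62 to 43.1), a value for the whole gene that does not check the deletion.

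All 159 sequence names were found in RefSeq (WBcel235), where 157 are protein-coding and 2, col-182 and col-66, are pseudogenes. For 2 members the current name differs: col-112 is now bli-6, and col-70 is listed under a sequence name. Of the members, 42 lay on chromosome IV, 30 on V, 28 on X, 25 on II, 22 on I and 12 on III. Their gene models were compact, with a median coding length of 912 nt (quartiles 882 and 984) over the 157 with a coding model and a median of 2 exons, against 1002 nt and 5 exons over all genes listed. An exception is col-99, which encodes a transmembrane collagen rather than a secreted one and has 18 exons. In the files 125 members have a locus of their own on ce10 and 34 share one with other genes, col-107 with the most, in a locus of 10 genes. Collagen genes are similar in sequence, and no source used here says how reads of similar copies were divided, so single values of close copies such as col-12 and col-13 are uncertain.

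A few members held most of the family's RNA. The summed level of all members was 10550 FPKM in the mutant, 8720 in the transgenic line and 7469 in wild type, and the 5 most abundant genes made up 65.4%, 69.0% and 65.0% of it. By the mean of the 3 genotypes, 11 members were abundant (FPKM of at least 100), 46 moderate (10 to under 100), 28 low (1 to under 10) and 74 under 1. These 74 together summed to 20.2 FPKM in the mutant, 8.46 in the transgenic line and 7.79 in wild type. At an FPKM of at least 1 there were 84 members in the mutant, 80 in the transgenic line and 85 in wild type. Those listed at 0 numbered 25 in the mutant (15.7%), 36 in the transgenic line (22.6%) and 50 in wild type (31.4%), beside 17.0%, 22.3% and 26.6% of all genes in the same order of genotypes.

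The most abundant member was col-17 (F11G11.10, ce10 chromosome II, 4866431 to 4867569), which encodes a cuticle collagen of the larva. Its level was 2029 FPKM in the mutant (1199 to 2836), 1941 in the transgenic line (1096 to 2737) and 1541 in wild type (860.1 to 2208). Next came col-73 (F11G11.12, chromosome II, 4872093 to 4873122), at 1606 in the mutant (901 to 2299), 1408 in the transgenic line (756 to 2040.4) and 1184 in wild type (625 to 1677). In both genes the mutant was the highest and wild type the lowest, and the 3 intervals overlapped. The third, col-41 (T10B10.1, chromosome X), stood at 1031 in the mutant (593 to 1466), 989 in the transgenic line (549.6 to 1428) and 764 in wild type (396 to 1131), in a locus that 3 genes share. For col-90 (C29E4.1, chromosome III), in a locus of 2 genes, the values were 1144 in the mutant (612 to 1674), 803 in the transgenic line (389 to 1217) and 705 in wild type (353 to 1057). The fifth was col-125 (C29F4.1, chromosome IV, 11225483 to 11226497), with 1092 in the mutant (576 to 1601), 874 in the transgenic line (446 to 1300.0) and 660.4 in wild type (327 to 991). All 5 therefore had the same order of genotypes, and each of the 5 differed from the next in this order by less than the intervals.

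A second tier stood well below these 5. The values of col-107 (C34H4.4, chromosome IV) were 320.0 in the mutant (84.7 to 555), 229 in the transgenic line (43.2 to 415) and 287 in wild type (71.5 to 502). The following 5 members, col-166, col-167, col-169, col-180 and col-173, are all on the X chromosome. Of these, col-166 (T07H6.3) was at 227 FPKM in the mutant (101 to 352), 253 in the transgenic line (118 to 389) and 203 in wild type (87.6 to 318). For col-173 (F41C6.5) the levels were 139 in the mutant (63.2 to 214), 78.9 in the transgenic line (31.1 to 126) and 87.9 in wild type (34.4 to 141). The other 3 ranged from 132 to 219 in the mutant, from 132 to 201 in the transgenic line and from 93.5 to 178 in wild type, and no pair of intervals was apart in any of them. With col-41, 6 of the 11 abundant members were X-linked, among 28 X-linked members in all.

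**Figure D1:**
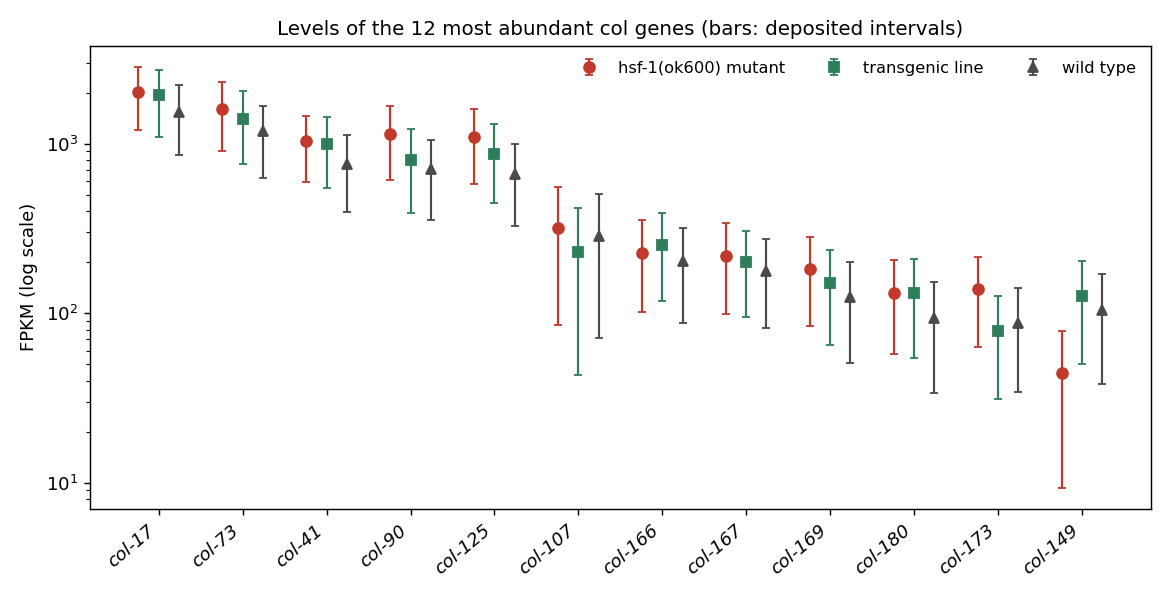
FPKM (log scale) of the 12 col genes with the highest mean over the 3 genotypes, with the deposited intervals as bars and the mutant, the transgenic line and wild type from left to right within each gene. The first 5 genes lie between 660.4 and 2029 FPKM and the mutant is the highest of the 3 in each of them, while col-149 is lowest in the mutant (44.1), and all intervals of a gene overlap.

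The mutant was set against wild type to ask which members differ in larvae with the hsf-1 deletion. Abundant and moderate col genes lay mostly higher in the mutant, by less than a doubling for every abundant one, and few single genes passed the deposited test. Of the 92 members with an FPKM of at least 1 in either genotype, 69 were higher in the mutant and 23 lower, and the median difference in log2(FPKM + 1) was 0.41 (quartiles 0.02 and 0.89). Over all 13205 genes past the same filter, 57.7% were higher and the median was 0.15. The authors' deposited test (Cuffdiff) covered 88 of the 159 members, and at a q of at most 0.05 in it 6 rose, 1 fell and 81 did not pass. That is 6.82% and 1.14% of the tested members, beside 2.93% that rose and 2.9% that fell among all 12615 genes tested (5.83% in either direction). An unadjusted p under 0.05 in the authors' deposited table was found for 24 members (27.3%, 22 higher and 2 lower), and for 19.5% of all tested genes (1328 higher and 1134 lower). The deposited intervals of the mutant and wild type were apart in 0 members, and in 0.886% of all genes (0.621% higher and 0.265% lower in the mutant). Of the 74 members with a mean under 1 FPKM only 4 were tested.

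The 6 members that rose were col-125 of the abundant class and col-109, col-14, col-172, col-145 and col-161 of the moderate class, all genes for cuticle collagens. For col-125, at the levels given above, the mutant stood 1.65-fold over wild type (q = 0.0215 in the authors' deposited table). The level of col-109 (Y38C1BA.3, chromosome IV, 1817044 to 1820252) was 91.1 in the mutant (32.0 to 150.5), 59.5 in the transgenic line (16.5 to 102) and 38.6 in wild type (9.54 to 67.7), a 2.36-fold rise in the mutant over wild type (q = 0.0224 in the authors' deposited table). That of col-14 (C46A5.3, chromosome IV) was 111 in the mutant (34.1 to 188), 41.0 in the transgenic line (0.122 to 81.9) and 36.9 in wild type (2.45 to 71.5), a 3.01-fold rise (q = 0.0249 in the authors' deposited table), in a locus that 4 genes share. In both genes the mutant was the highest of the 3, and in col-14 the other genotypes lay close together.

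The largest fold among the risers belonged to col-172 (F38B6.5, chromosome X, 6672792 to 6674374), at 86.2 in the mutant (16.4 to 156), 47.3 in the transgenic line (2.72 to 106) and 28.5 in wild type (1.08 to 56.8), 3.02-fold (q = 0.0378 in the authors' deposited table). The gene col-145 (B0222.7, chromosome V, 9162028 to 9162982) had 82.6 in the mutant (30.6 to 134), 42.5 in the transgenic line (11.9 to 73.1) and 31.6 in wild type (7.44 to 55.8), 2.61-fold (q = 0.0337 in the authors' deposited table). Lastly, col-161 (C50B6.4, chromosome V, 13317019 to 13317997) had 71.9 in the mutant (25.3 to 118), 33.2 in the transgenic line (8.67 to 57.5) and 25.9 in wild type (5.48 to 46.0), 2.77-fold (q = 0.0403 in the authors' deposited table). In all 6 the transgenic line lay between the mutant and wild type, and the mutant's interval overlapped that of wild type. In the authors' deposited table, 0 members passed at a q of at most 0.01.

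The 1 member that fell was col-149 (B0024.1, chromosome V), another cuticle collagen gene. Its level was 44.1 FPKM in the mutant (9.33 to 78.9), 126 in the transgenic line (49.8 to 202) and 104 in wild type (37.9 to 169.7), so that the mutant stood at 0.425 of wild type (q = 0.0232 in the authors' deposited table). The mutant was the lowest of the 3 here, and the transgenic line the highest. The locus of col-149 holds 2 genes in the files, and no member with a locus of its own fell. Its neighbour in the genome, col-150, was at 2.73 in the mutant, 1.94 in the transgenic line and 4.22 in wild type (q = 0.729 in the authors' deposited table).

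**Figure D2:**
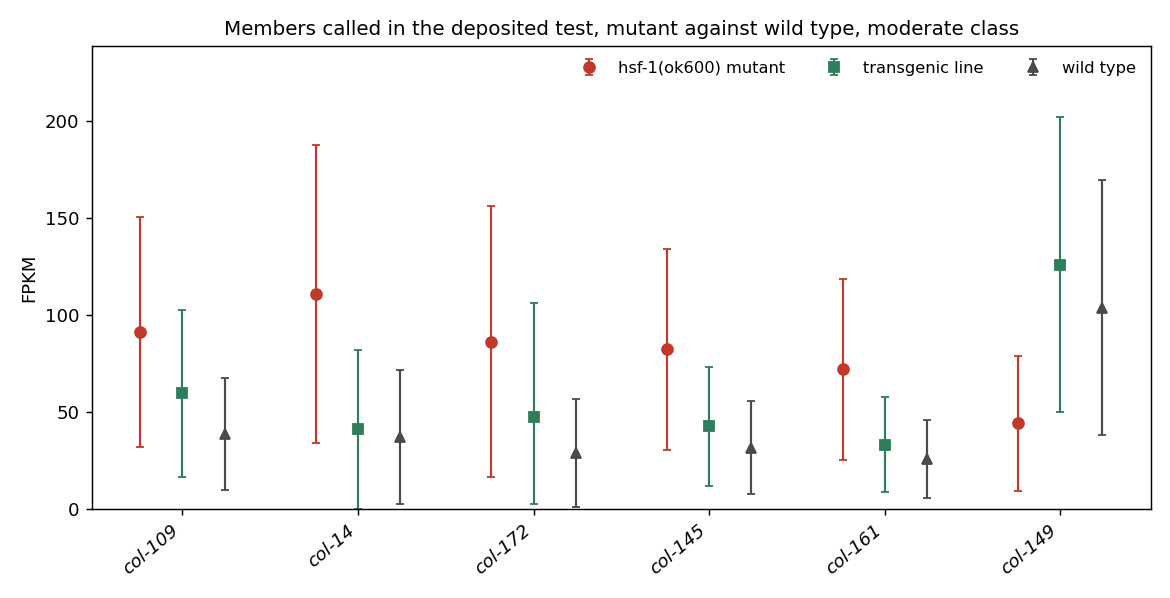
FPKM of the 5 moderate members that rose and of col-149, which fell, in the deposited test of the mutant against wild type, with deposited intervals as bars (the more abundant col-125 is left out for scale). The mutant is highest in the first 5 genes, between 71.9 and 111 FPKM against 25.9 to 38.6 in wild type, and lowest in col-149.

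By class, all 11 abundant members were higher in the mutant than in wild type, by 1.11-fold to 1.65-fold, with a median log2 difference of 0.44. Among all 1474 genes of that class, 734 were higher and the median was −0.00. The class mean includes the mutant value, so the mutant helps decide the class. It brought col-173 to 100 (139 in the mutant, 78.9 in the transgenic line and 87.9 in wild type). The low mutant value kept col-149 below 100 (44.1, 126 and 104 in the same order). With classes by wild-type FPKM, 9 of 10 abundant members were higher. Of the 46 moderate members, 37 were higher, their folds ran from 0.326 to 4.32, and the median was 0.49, beside 0.05 over all moderate genes. The 28 low members gave 17 higher and a median of 0.25, beside 0.30 over all low genes. The abundant and moderate members thus had higher medians than other genes of their level, and the low members did not, a contrast between classes that was not tested. By the deposited test 1 of 11 abundant members rose (9.09%) and 0 fell, beside 6.68% that rose and 10.1% that fell among all abundant genes tested. Of the 46 moderate members 5 rose (10.9%) and 1 fell (2.17%), beside 3.23% and 3.19% of all moderate genes tested. In the authors' deposited table (Cuffdiff) 0 of the 27 low members tested passed, beside 0.940% of all low genes that rose and 0.490% that fell. The abundant and low counts were thus close to the background of their class. By an unadjusted p under 0.05 in the authors' deposited table, 1 low member (3.70%) was counted, beside 11.9% of all low genes tested. The moderate class had 18 such members (39.1%, beside 22.0% of all moderate genes tested) and the abundant class 5 (45.5%, beside 36.1%).

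**Figure D3:**
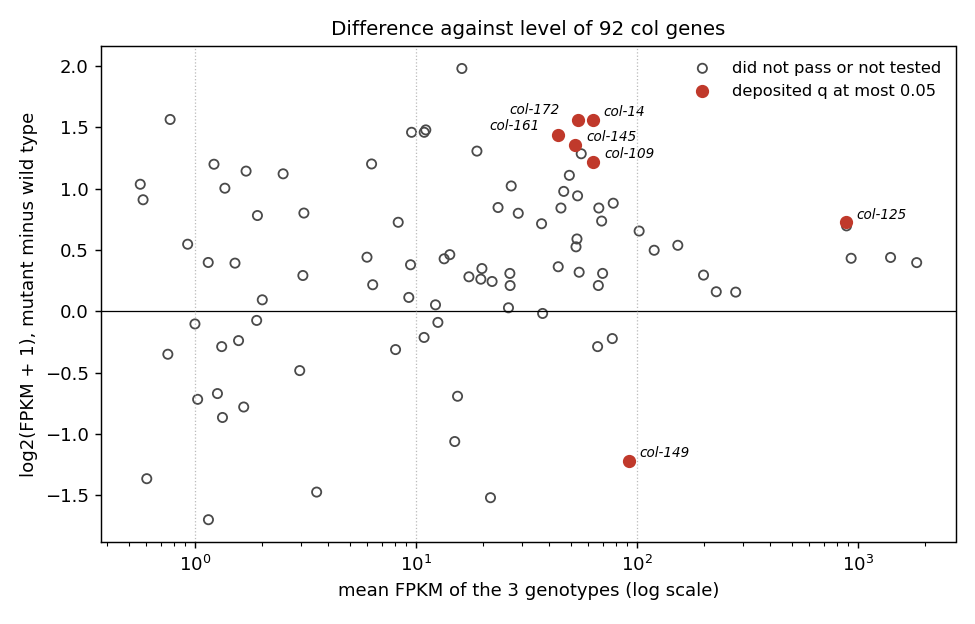
Difference in log2(FPKM + 1) of the mutant from wild type (vertical axis) against the mean FPKM of the 3 genotypes (log scale) for the 92 col genes that reach 1 FPKM in either genotype, with filled points for a deposited q of at most 0.05 and dotted lines at the borders between classes (1, 10 and 100 FPKM). To the right of 100 all 11 points lie above 0, while the low members spread to both sides. The mean includes the mutant value, and with classes by wild-type FPKM 9 of 10 abundant members were higher.

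Several moderate and low members had larger folds without passing. The largest log2 difference among those with an FPKM of at least 5 was that of col-133 (F52B11.4, chromosome IV), at 33.8 in the mutant (9.09 to 58.4), 6.61 in the transgenic line (0.112 to 13.0) and 7.81 in wild type (0.337 to 15.4), 4.32-fold over wild type (q = 0.0618 in the authors' deposited table). The values of col-176 (ZC373.7, chromosome X) were 20.9 in the mutant (5.34 to 36.5), 4.68 in the transgenic line (0.198 to 9.10) and 6.97 in wild type (0.989 to 13.0) (q = 0.0849 in the authors' deposited table). In col-113 (C34D4.15) all lower bounds were 0, and the levels were 15.4 in the mutant, 12.9 in the transgenic line and 4.87 in wild type (q = 0.569 in the authors' deposited table). At the other end, col-47 (Y18H1A.12) was at 9.25 in the mutant (0 to 27.9), 27.3 in the transgenic line (0 to 79.4) and 28.4 in wild type (0 to 65.7), col-79 at 1.85, 1.84 and 6.93 in the same order of genotypes, while col-117 had 9.73 in the mutant, 13.6 in the transgenic line and 21.4 in wild type. Its neighbour col-3 had 12.5 in the mutant, 12.6 in the transgenic line and 20.9 in wild type. None of these 4 passed, with q-values between 0.25 and 0.785 in the authors' deposited table. Counted by a rule chosen after the values were seen, a 2-fold or larger difference where 1 genotype reached 5 FPKM, 14 of 66 members were higher in the mutant (21.2%, beside 13.8% of all genes) and 4 lower (6.06%, beside 11.6%).

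The mutant was set against the transgenic line to ask how the family differs between larvae with and without the hsf-1::gfp transgene on the same mutant background. No deposited test for this pair is used here, so levels and intervals are given without p-values. Of 87 members with an FPKM of at least 1, 70 were higher in the mutant and 17 lower, with a median log2 difference of 0.36, beside 59.5% higher and 0.19 over all 13094 genes. The deposited intervals were apart in 0 members and in 1.38% of all genes (0.703% higher and 0.68% lower in the mutant). At least 2-fold, 14 of 65 members were higher in the mutant (21.5%, beside 14.8% of all genes) and 3 lower (4.62%, beside 13.1%). In the abundant class 10 of 11 members were higher, with a median of 0.19, beside 43.4% higher and −0.09 over all abundant genes. The moderate members gave a median of 0.63, beside 0.04, and the low ones 0.30, beside 0.40.

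The members furthest up in the mutant relative to the transgenic line were col-133 and col-176, at the levels given above (5.11-fold and 4.47-fold), followed by col-91, col-146 and col-159. The gene col-91 (F09G8.6, chromosome III), in a locus of 2 genes, stood at 73.9 in the mutant (21.2 to 127), 20.6 in the transgenic line (0.826 to 40.7) and 40.8 in wild type (3.44 to 78.0). The gene col-146 (T06E4.6, chromosome V) was at 9.21 in the mutant (1.25 to 17.1), 2.04 in the transgenic line (0 to 4.54) and 7.79 in wild type (0.680 to 14.9), and col-159 (F57B1.3, chromosome V) at 38.5 in the mutant (11.9 to 65.0), 10.9 in the transgenic line (1.64 to 20.0) and 20.9 in wild type (4.61 to 37.2). In these 3 genes, and in col-133 and col-176 as well, the transgenic line was the lowest of the genotypes, not between the others. Furthest down were col-174, col-149, col-47, col-117 and col-65. The last of these was at 33.2 in the mutant (9.45 to 56.8), 45.0 in the transgenic line (13.4 to 76.6) and 33.6 in wild type (9.45 to 57.7).

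The transgenic line was set against wild type to ask how far the family lies from the wild-type level when the transgene is present. The median member lay close to wild type, and 9 of the 11 abundant members were higher, beside 62.2% of all abundant genes. Of 88 members with an FPKM of at least 1, 50 were higher in the transgenic line and 38 lower, and the median log2 difference was 0.07, beside 6299 higher and a median of 0.00 over all 12586 genes. The intervals were apart in 0 members and in 0.699% of all genes (0.556% higher and 0.143% lower in the transgenic line). Only 3 of 66 members were at least 2-fold higher (4.55%, beside 12.6% of all genes) and 3 at least 2-fold lower (4.55%, beside 13%). By class the medians were 0.26 for abundant, 0.06 for moderate and 0.01 for low members, beside 0.12, 0.01 and −0.09 over all genes of those classes. The summed level of the family was 1.17-fold that of wild type in the transgenic line, and 1.41-fold in the mutant. The FPKM of all genes also summed higher in the transgenic line than in the others. As a share of that sum the family was at 1.03% in the mutant, 0.790% in the transgenic line and 0.729% in wild type. The 3 comparisons share their genotypes pairwise and are not independent of each other.

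Single members lay further from wild type in both directions, though all of their intervals overlapped those of wild type. The largest difference was that of col-174 (F46C8.2, chromosome X, 7546796 to 7548320), which was high in the transgenic line alone, at 6.53 in the mutant (0.903 to 12.2), 23.8 in the transgenic line (5.34 to 42.3) and 6.26 in wild type (0.821 to 11.7), 3.81-fold over wild type. Others on the upper side were col-113, col-80, col-172 and col-128. Of these, col-80, in a shared locus like col-113, was at 8.56 in the mutant, 11.5 in the transgenic line and 4.78 in wild type. The gene col-128 was at 96.3 in the mutant (44.0 to 149), 85.3 in the transgenic line (37.2 to 133) and 51.8 in wild type (18.9 to 84.7). On the lower side stood col-146 and col-79 (given above), col-97, col-39 and col-91. For col-97 (ZK1010.7, chromosome III), in a locus of 3 genes, the levels were 96.2 in the mutant (32.7 to 159.7), 35.3 in the transgenic line (1.59 to 70.0) and 77.4 in wild type (19.4 to 136). That of col-39 (C09G5.4), in a locus of 6 genes that also holds col-79 and col-80, was 83.6 in the mutant (29.6 to 138), 49.8 in the transgenic line (9.82 to 89.9) and 97.7 in wild type (22.2 to 173).

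Seen over all 3 genotypes, 62 of the 92 members with an FPKM of at least 1 in any of them had their highest value in the mutant (67.4%), 12 in the transgenic line (13.0%) and 18 in wild type (19.6%). Over all 13405 such genes the shares were 42.6%, 28.5% and 28.8%. The lowest value was in the mutant for 11 members, in the transgenic line for 36 and in wild type for 45. The transgenic line thus held 39.1% of the lowest values and wild type 48.9%, beside 25.3% in the mutant, 37.4% in the transgenic line and 37.3% in wild type over all such genes. The mutant held the top value of most members, and the share with the lowest value in the transgenic line was near that of all genes.

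**Figure D4:**
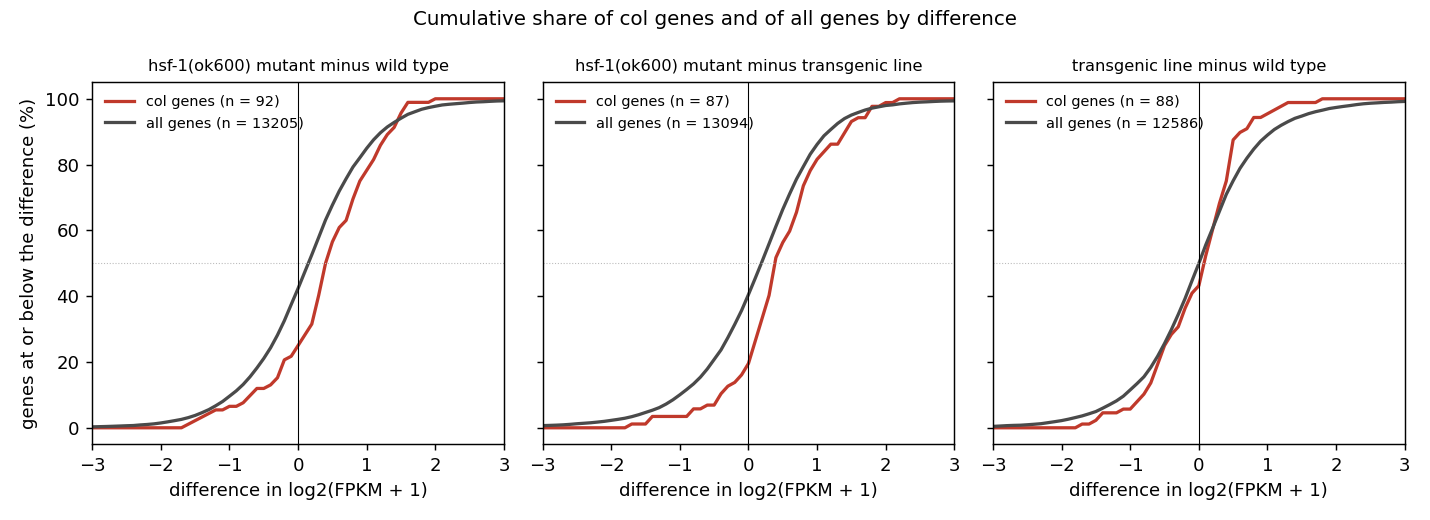
Cumulative share (vertical axis, %) of col genes and of all genes against the difference in log2(FPKM + 1), for the mutant minus wild type, the mutant minus the transgenic line and the transgenic line minus wild type, each over genes that reach 1 FPKM in either genotype. The curve of the col genes is shifted to the right in the first pair of panels (medians 0.41 and 0.36, beside 0.15 and 0.19 for all genes) and the curves lie closer together in the third (0.07 beside 0.00), where they cross between differences of 0.2 and 0.3.

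Neighbouring members could differ by orders of magnitude. Among the 125 members with a locus of their own, 41 fell into 17 runs in which each member starts within 5 kb of the next, and 7 of these runs held members of more than 1 abundance class. The clearest case was on chromosome II, where col-20 (F11G11.11, 4869602 to 4870786) lies between col-17 and col-73, the pair with the highest levels of the family. Its own level was 0.320 FPKM in the mutant (0 to 1.11), 0.0660 in the transgenic line (0 to 0.302) and 0.0725 in wild type (0 to 0.302).

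The longest run, of 5 members, lay on the X chromosome from 6323261 to 6335185, and each of its genes has 1 exon in the Ensembl models. Along it col-167 was at 219 in the mutant, 201 in the transgenic line and 178 in wild type, the next gene col-168 at 26.1, 26.7 and 25.5, and col-169 at 182, 149.8 and 125, in the same order of genotypes. Then followed col-170 at 18.3 in the mutant, 11.2 in the transgenic line and 13.0 in wild type, and col-171 at 0.0899, 0.0661 and 0. In every genotype col-167 and col-169 were high, and the genes that follow each of them were lower. In contrast, the run of col-144, col-145 and col-10 on chromosome V was even in level. Its middle gene col-145 rose in the mutant, while col-144 was at 51.4 in the mutant, 40.5 in the transgenic line and 39.7 in wild type, and col-10 at 55.8, 74.1 and 68.4, where the authors' deposited table has q = 0.629 and q = 0.687. On chromosome III, col-92 had 17.0 in the mutant, 6.02 in the transgenic line and 5.54 in wild type, and col-94 had 9.85 in the mutant, 5.24 in the transgenic line and 3.72 in wild type. Neither passed (q = 0.159 for col-92 and q = 0.293 for col-94 in the authors' deposited table). Between them, col-93 had 30.0 in the mutant, 25.4 in the transgenic line and 24.0 in wild type.

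**Figure D5:**
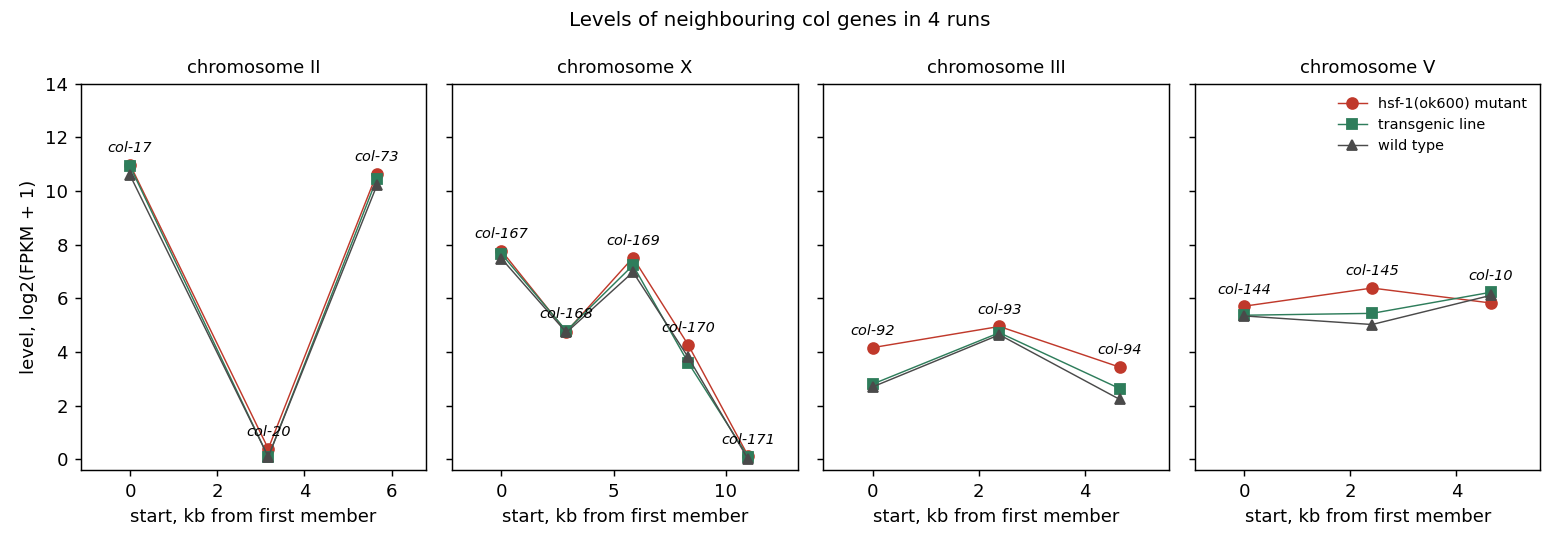
Level as log2(FPKM + 1) of neighbouring col genes against the distance of their start from that of the first member (kb), in 4 runs on chromosomes II, X, III and V, with a line per genotype. On chromosome II the gene between col-17 and col-73 lies near 0 in every genotype, and on the X chromosome col-167 and col-169 stand above the genes that follow them.

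Members known for other stages were low, under 1 FPKM in every genotype except for the L4 gene col-38. The dauer collagen gene col-2 and the adult gene col-7 were listed at 0 throughout, and the adult gene col-19, a common marker of the adult epidermis, was at 0.142 in the mutant, 0.117 in the transgenic line and 0 in wild type. Of the genes known for the L4 stage, col-38 was at 2.58 in the mutant (0 to 5.16), 1.09 in the transgenic line (0 to 2.52) and 2.36 in wild type (0 to 4.70). The other L4 genes were lower: col-49 at 0.828, 0.405 and 0.0878, and col-63 at 0.183, 0 and 0, in the same order of genotypes. The transmembrane collagen gene col-99 was at 0.916 in the mutant (0 to 2.33), 0.809 in the transgenic line (0 to 1.61) and 2.05 in wild type (0 to 4.83). In all, 20 members were listed at 0 in every genotype. A further 26 were listed at 0 in wild type and above 0 in the mutant, where the highest of them reached 0.787, and 1 the other way round. Over all genes, too, more were listed at 0 in wild type (26.6%) than in the mutant (17.0%). One gene that carries a col name in RefSeq only, col-42 (Y69H2.14), noticed after its values were seen, was at 45.2 in the mutant, 30.7 in the transgenic line and 29.3 in wild type (q = 0.388 in the authors' deposited table).

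Genes that modify, cut, cross-link or export cuticle collagen were examined as the machinery that col proteins pass through. Their list also held the moulting gene mlt-10, which is among the epidermis markers below as well. Of the 19 in the files, 18 were tested, and 1 rose, 1 fell and 16 failed to pass in the authors' deposited table, and the median log2 difference from wild type was 0.14, beside 0.15 over all genes. With 2.93% of all tested genes rising and 2.9% falling, 1 of 18 in either direction is close to the background. The riser was phy-2, for a catalytic subunit of collagen prolyl 4-hydroxylase, at 173 in the mutant (87.5 to 258), 131 in the transgenic line (59.8 to 202) and 95.1 in wild type (39.7 to 151) (q = 0.0148 in the authors' deposited table). The other catalytic subunit gene, dpy-18, was at 172 in the mutant (92.4 to 252), 162 in the transgenic line (85.9 to 238) and 188 in wild type (101 to 274) (q = 0.803 in the authors' deposited table). Their partner pdi-2, a protein disulphide isomerase, was at 2301 in the mutant, 3307 in the transgenic line and 2323 in wild type. The one that fell, sec-24.2, for a cargo adaptor of COPII vesicles, was at 68.4 in the mutant, 98.3 in the transgenic line and 123 in wild type (q = 0.0166 in the authors' deposited table). Of 3 collagen genes outside the cuticle (emb-9, let-2 and cle-1) none passed. The basement membrane collagen gene emb-9 was at 85.2 in the mutant, 76.7 in the transgenic line and 70.4 in wild type, and its partner let-2 at 137 in the mutant, 115 in the transgenic line and 127 in wild type (q = 0.497 for emb-9 and q = 0.813 for let-2 in the authors' deposited table).

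Of 9 markers of the epidermis, 8 were well above 0 in every genotype. The other, the cuticle collagen gene bli-1, was at 0.847 in the mutant (0 to 4.75), 0.401 in the transgenic line (0 to 2.57) and 1.29 in wild type (0 to 9.74). The 9 together had a summed level of 6341 FPKM in the mutant, 6537 in the transgenic line and 4605 in wild type. Most of that sum came from sqt-3, a cuticle collagen gene without a col name, at 3938 in the mutant (2420.1 to 5453), 4017 in the transgenic line and 2682 in wild type (1529 to 3725), for which the authors' deposited table has q = 0.0535. In the mutant against wild type the authors' deposited table has 1 of the 9 rising and 0 falling, beside 2.93% and 2.9% of all tested genes. The riser was the cuticle collagen gene rol-6, at 586 in the mutant, 475 in the transgenic line and 315 in wild type. Like bli-1, sqt-3 and rol-6, the marker dpy-7 is itself a cuticle collagen gene. It was at 235 in the mutant, 259 in the transgenic line and 175 in wild type (q = 0.366 in the authors' deposited table). The markers that are not collagens did not pass: elt-3, for a transcription factor of the epidermis, was at 101 in the mutant, 107 in the transgenic line and 123 in wild type, and lin-26, for another, at 96.6, 109 and 77.0. The moulting gene mlt-10 was at 192, 164 and 189, noah-1, for a protein of the apical matrix, at 1159, 1379 and 1012, and the hedgehog-related gene grd-1 at 31.6, 26.7 and 30.9, in the same order of genotypes. Summed marker levels of other tissues were 2157 in the mutant, 2312 in the transgenic line and 2287 in wild type for muscle (3 genes), 934, 1410.5 and 1151 for the intestine (4 genes), 840.2, 566 and 522 for neurons (3 genes), and 37.1, 40.5 and 42.4 for the germ line (2 genes), with none at 0. Of these, 1 passed in the authors' deposited table, the neuronal gene snb-1, for a synaptic vesicle protein, which rose. Levels of snb-1 were 624 in the mutant, 421 in the transgenic line and 303 in wild type. The other neuronal genes were at 180, 121 and 186 (rab-3) and 36.0, 23.3 and 33.2 (unc-119), in the same order of genotypes. Most of the intestinal sum came from act-5, at 904, 1379 and 1127. The others were at 22.5, 11.1 and 17.9 (elt-2), 5.33, 19.4 and 5.36 (ges-1), and 1.74, 1.13 and 0.761 (vit-2). The part of any of these markers in the values of the col genes was not tested. Since col genes are made in bursts within each larval stage and all larvae were taken 30 h after the egg lay, genotype and progress through the stage cannot be told apart.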

How the data were processed

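TopHat2, Cuffdiff and the build ce10 are named in the submitters' processing notes for the 9 libraries, with no version, annotation, filter or strand setting. RNA was isolated by Trizol and column and amplified with a Nugen kit, per the labels. FPKM values and their bounds stand 1 per gene and genotype, per the file headers, so the authors had combined the libraries. A p-value and a q-value are deposited for the mutant against wild type alone; the q equals a Benjamini-Hochberg adjustment over all 12615 tested genes.

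The linear model that was planned needs values per library, so its fallback was used: q no higher than 0.05 and 1 FPKM or more in either genotype, and for other pairs intervals that do not overlap. Log2 differences took a pseudocount of 1, which understates changes of low genes, while folds are plain FPKM ratios. The deposited test used FPKM on a slightly different scale (median ratio 1.04 in wild type). Locus starts count from 0 and were raised by 1. Whether the libraries came from separate cultures is not stated, so p-values cover the spread between libraries only, which may be technical.

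Named are the 12 most abundant members, those called, the 5 largest rises and falls per comparison among members reaching 5 FPKM, and the listed stage, pathway and marker genes; other neighbours, the pseudogenes and renamed members, and col-42 were added after values were seen. Members and lists were chosen with earlier results of these data known. Calculations were done with pandas 2.3.3 and numpy 2.4.6. Simulated data with planted large differences and narrow intervals were used to check the code only. Exons and coding lengths come from Ensembl release 115 (WBcel235). The listed genes cyp-9 and col-6 were not matched and are not analysed here. No sequences were used.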

Additional observations from a re-analysis of the deposited data

How the results depend on the processing

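Of 126 values under alternatives to 35 results, 95 stayed within 0.1 on the log2 scale, or 1.5-fold for counts, and 31 moved further. The small median of the transgenic line against wild type, 0.07, was 0 with no filter and 0.02 when centred. In the mutant against wild type, the median of 0.41 became 0.24 with no filter on low values, where 106 members were higher; a minimum FPKM of 5 left 11 lower. At a q of at most 0.01, and by intervals that do not overlap, 0 members rose and 0 fell; among members in a locus of their own 0 fell. In the mutant against the transgenic line, the median of 0.36 was 0.48 with pseudocounts of 0.1 and 0.01, 0.47 with a minimum FPKM of 5 and 0.19 without a filter, which gave 110 higher and 29 lower. In the transgenic line against wild type, a minimum FPKM of 5 left 25 lower. With abundant set at a mean of 50, 25 of 28 abundant and 23 of 29 moderate members were higher, with a moderate median of 0.36. Classes by wild-type FPKM gave a low median of 0.10 and 9 of 10 abundant members higher. Without the 3 most abundant members, the sum in the mutant was 1.34-fold that in the transgenic line. In the modification list 0 rose and 0 fell at a q of at most 0.01. The 2-fold counts, an alternative chosen after seeing the data, became 24 higher and 10 lower (mutant against wild type), 6 lower (mutant against transgenic line) and 6 higher and 11 lower (transgenic line against wild type) at a minimum FPKM of 1; in loci of their own, 1 was lower, 1 lower, and 1 higher and 1 lower. The cause of these changes was not tested, beyond the fewer or more genes counted.

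No paired analysis was possible because the tables hold 1 value per genotype, and for the same reason leaving out a library was not run. Leaving out near-identical copies was not run either, since no protein sequences were used. The unknown depth and the wide intervals limit what can be said of low members.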
